A study of Rattus norvegicus with 6 samples.

Results

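The endothelin system was described through 7 genes, namely the ligands Edn1, Edn2 and Edn3, the receptors Ednra and Ednrb, and the converting enzymes Ece1 and Ece2. The genes were taken by symbol from a table of 40456 genes, and all 7 symbols had an entry. The set was chosen by earlier results of these libraries, namely the log2 fold change of Edn1 between the groups, with the related genes added by name, so their own differences between the groups are given as a description, without p-values. The study measured poly-A RNA in H9c2 (2-1) cells, a rat cardiomyoblast line of wild-type genotype, in 2 groups of 3 libraries each. For 5 days all cells had been kept at low serum with daily retinoic acid at 1 µM, which the controls thus saw too. The control group received a negative control LNA and the knockdown group a Tug1 knockdown LNA, each a gapmer at 25 nM for 24 h. A gapmer is a short antisense strand with locked nucleic acid ends that leads RNase H to the RNA it pairs with, and Tug1 is a long non-coding RNA. The model has limits that the labels themselves set, since it is 1 cell line and each arm used 1 gapmer sequence. Nothing in the labels says whether replicates were separate cultures, so p-values measure only the spread between these samples, which may be technical.

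Endothelins are short vasoactive peptides. Each is cut from a longer precursor, first by furin-type proprotein convertases to an inactive intermediate called big endothelin and then by a membrane metalloprotease, an endothelin converting enzyme, to the active peptide. The type A receptor, encoded by Ednra, couples to Gq proteins and phospholipase C, which releases stored calcium, and in heart muscle it is known for its part in contraction and hypertrophic growth. The type B receptor, encoded by Ednrb, is best known for clearing endothelin and for releasing nitric oxide from endothelium.

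The strands that define the groups were 16 bases long and are shown, as the labels give them, because the whole comparison is that of one against the other.
Tug1 gapmer: attcagtagacagcta
negative control gapmer: gctcccttcaatccaa

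The promoter of Edn1 is shown because the gene had the furthest difference among the endothelin genes and because transcription factors known to act on it were measured in the same libraries. The stretch runs from 250 to 101 bases before the RefSeq start of the gene, on the minus strand at chr17:22666788-22666937 of the rat assembly GRCr8, and is credited to RefSeq. It is written 5′ to 3′ along the gene.
Edn1 promoter: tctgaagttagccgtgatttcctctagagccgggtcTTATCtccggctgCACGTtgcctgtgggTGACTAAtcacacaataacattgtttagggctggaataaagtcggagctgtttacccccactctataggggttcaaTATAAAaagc
Capitals mark matches to 4 motifs searched on both strands over 250 bases before the start, none of them overlapping another. In the order of the sequence they are a GATA motif (GATAA, here on the other strand), the core of a hypoxia response element (ACGTG, here on the other strand), an AP-1 type motif (TGACTNA) and the letters of a TATA box (TATAAA). The GATA match lay 214 to 210 bases before the start and the hypoxia core 201 to 197. The AP-1 match lay 186 to 180 bases before it and the TATA letters 110 to 105. These positions count from the RefSeq start, and where transcription begins in these cells was not determined. Among 33469 rat promoters of the same length, 23.5% held the GATA letters, 16.6% the hypoxia core, 11.5% the AP-1 letters and 12.9% the TATA letters, and 0.0657% held all 4. The motifs were a fixed choice that drew on factor families known to regulate Edn1, so nothing is read from these shares. RefSeq sequences were at hand for 6 of the 7 endothelin genes. No match to any of the 4 motifs was found before Edn2, Ednra, Ednrb, Ece1 or Ece2, which says only that these letters are not in those windows.

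Total counts ran from 12978548 to 13544337 per library, and levels are given as CPM, the count scaled to library size with TMM factors. Tug1 itself was at 54.0 ± 1.77 CPM (mean ± SD, n = 3) in controls and at 11.9 ± 0.609 CPM (mean ± SD, n = 3) after knockdown, and its groups did not overlap. The labels call the cells cardiomyocytes, and of 10 cardiomyocyte markers Myh6, Myh7, Ryr2 and Nkx2-5 were at or under 3 counts in every library, while Tnnt2 was at 349 ± 18.0 CPM in control libraries (mean ± SD, n = 3). Of 10 skeletal muscle markers 9 were tested. Their list summed to 835 to 845 CPM in control libraries and 1270 to 1350 CPM after knockdown. In edgeR's quasi-likelihood fit all 9 passed an adjusted p of 0.05, 8 higher and 1 lower (Myod1, log2 fold change -0.32). Among all tested genes 61.7% passed. By the same threshold 3 of 4 tested cardiomyocyte markers passed, Tnnt2 (0.24) and Myl2 (1.23) higher and Pln (-0.68) lower. Endothelial cells are a classic source of endothelin. Of 10 endothelial markers Erg had no count, Pecam1, Cdh5, Kdr and Emcn were at or under 3 counts in every library, and the list summed to 3.41 to 4.78 CPM in control libraries and 4.14 to 5.65 CPM after knockdown. Macrophage markers summed to 10.9 to 13.1 CPM in control libraries and 15.5 to 17.5 CPM after knockdown, with Ptprc and Adgre1 at 0. Fibroblast markers, led by collagen genes, summed to 43800 to 45200 CPM in control libraries and 41200 to 44000 CPM after knockdown, and smooth muscle markers to 156 to 162 and 185 to 190 CPM. By the same threshold 5 of 7 tested fibroblast markers passed, 2 higher (Col3a1 and Dcn) and 3 lower (Col1a1, Postn and Thy1). Of 7 smooth muscle markers, all tested, 4 were higher and 1 was lower. These counts stand beside the 61.7% of all tested genes that passed. The part of shifts in muscle, fibroblast or macrophage markers in the results below was not tested.

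Among the ligands only Edn1, which encodes the precursor of endothelin 1, was detected, and its level after Tug1 knockdown was 13.7% of that in controls. Controls held 450, 420 and 401 counts in replicates 1 to 3, or 34.5, 32.5 and 30.9 CPM. The knockdown libraries held 42, 58 and 81 counts, or 3.04, 4.29 and 6.12 CPM. Every knockdown library lay far below every control library, and the groups did not come near each other. The group levels were 32.7 ± 1.80 CPM in control libraries and 4.48 ± 1.55 CPM after knockdown (mean ± SD, n = 3), and the log2 fold change was -2.87 (SE 0.137). Ranked from the lowest log2 fold change, Edn1 stood at rank 22 of 14216 tested genes. In bulk RNA, fewer cells that express a gene and less of its RNA per cell cannot be told apart.

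The knockdown libraries differed among themselves in Edn1 more than the controls did. Relative to the control mean, Edn1 stood at 9.32%, 13.1% and 18.7% in knockdown replicates 1 to 3, and Tug1 at 22.0%, 20.8% and 23.1%. Edn1 was highest in the library with the highest Tug1, but lowest in replicate 1 where Tug1 was lowest in replicate 2. The 95% exact Poisson interval was 2.19 to 4.12 CPM in replicate 1 and 4.86 to 7.60 CPM in replicate 3, so these libraries differed beyond counting error. The interval covers counting error only, since reads were not marked by molecule and copies of 1 fragment may be counted more than once. The coefficient of variation was 34.5% after knockdown and 5.51% in controls. Without knockdown replicate 3 the log2 fold change was -3.15, and without knockdown replicate 1 it was -2.65.

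Edn2 and Edn3, which encode the other two endothelin precursors, had 0 counts in all libraries of both groups. A count of 0 allows up to 3 counts, which corresponds to 0.217 to 0.232 CPM per library. Edn1 was thus the one endothelin ligand gene with reads in these cells, before and after knockdown.

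Among the receptors the type A receptor gene was detected and the type B receptor gene was not. Ednra held 455, 482 and 508 counts in control replicates 1 to 3, or 34.9, 37.3 and 39.2 CPM. After knockdown it held 418, 415 and 405 counts, or 30.3, 30.7 and 30.6 CPM. The knockdown libraries lay close together and below the lowest control, so the groups did not overlap, but the gap between them was narrow. Group levels were 37.1 ± 2.15 and 30.5 ± 0.206 CPM (mean ± SD, n = 3), which puts Ednra at 82.2% of the control level, with a log2 fold change of -0.28 (SE 0.0714). Ednrb had 0 counts in all 6 libraries, with the same limit of 0.217 to 0.232 CPM per library.

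Both converting enzyme genes were detected, and they differed in how they stood between the groups. Ece1, the broadly expressed enzyme that cuts big endothelin 1, held 1188, 1143 and 1081 counts in control replicates 1 to 3, or 91.1, 88.5 and 83.4 CPM. After knockdown it held 920, 854 and 876 counts, or 66.7, 63.2 and 66.2 CPM. The groups did not overlap. Group levels were 87.7 ± 3.94 and 65.3 ± 1.89 CPM (mean ± SD, n = 3), or 74.5% of the control level after knockdown, with a log2 fold change of -0.42 (SE 0.0564).

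Ece2, a related enzyme that works at acidic pH and is known mainly from brain, held 92, 102 and 69 counts in control replicates 1 to 3, or 7.06, 7.90 and 5.32 CPM. After knockdown it held 89, 98 and 73 counts, or 6.45, 7.25 and 5.51 CPM. The groups overlapped throughout, with replicate 2 highest and replicate 3 lowest in both. Group levels were 6.76 ± 1.31 and 6.40 ± 0.869 CPM (mean ± SD, n = 3), and the log2 fold change of -0.08 (SE 0.162) was smaller than its error. This does not show that the level was the same, and at 69 to 102 counts per library a small difference was not detectable at this depth.

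**Figure D1:**
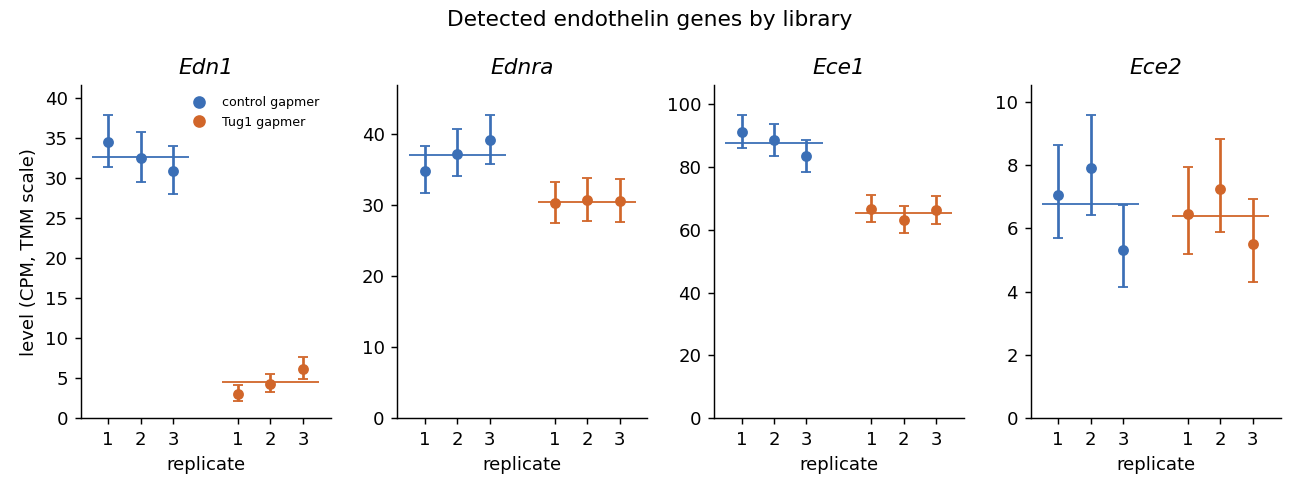
Level of Edn1, Ednra, Ece1 and Ece2 in each library, in CPM on the TMM scale with axes from 0; points are libraries, bars are 95% exact Poisson intervals (counting error only) and horizontal lines are group means. Edn1 lies at 30.9 to 34.5 CPM in control libraries and at 3.04 to 6.12 CPM after knockdown, Ednra and Ece1 sit lower by a small step, and Ece2 overlaps between groups.

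In all, 4 of the 7 genes passed the expression filter and were tested, and the other 3 had no counts. In edgeR's quasi-likelihood fit across all genes, 3 of the 4 (Edn1, Ednra and Ece1) passed an adjusted p of 0.05, all 3 lower after knockdown. Among all tested genes 61.7% passed, 30.9% as lower and 30.8% as higher, so a call as such is common in this comparison. The groups did not overlap for 3 of the 4, against 65.6% of all tested genes. As the genes were chosen with this contrast known, nothing is read from these counts. No levels are ranked between the 4 genes, because transcript lengths were not used here.

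The values were computed again in 16 other settings. These use the same libraries by which the genes were chosen, so they show only how far a value moves with the processing. Edn1 ranged from -3.15 to -2.65 on the log2 scale. The setting that moved Ednra and Ece1 most was an offset for gene length, which removes from each library its trend with genomic span. Both are long genes, at the 80.9th and 87.5th percentile of tested genes by span, and with the offset Ednra stood at -0.42 and Ece1 at -0.62. Edn1 is short, at the 15.6th percentile, and stood at -2.74 with the offset. Ece2 changed sign when control replicate 2 (0.05) or knockdown replicate 3 (0.02) was left out.

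**Figure D2:**
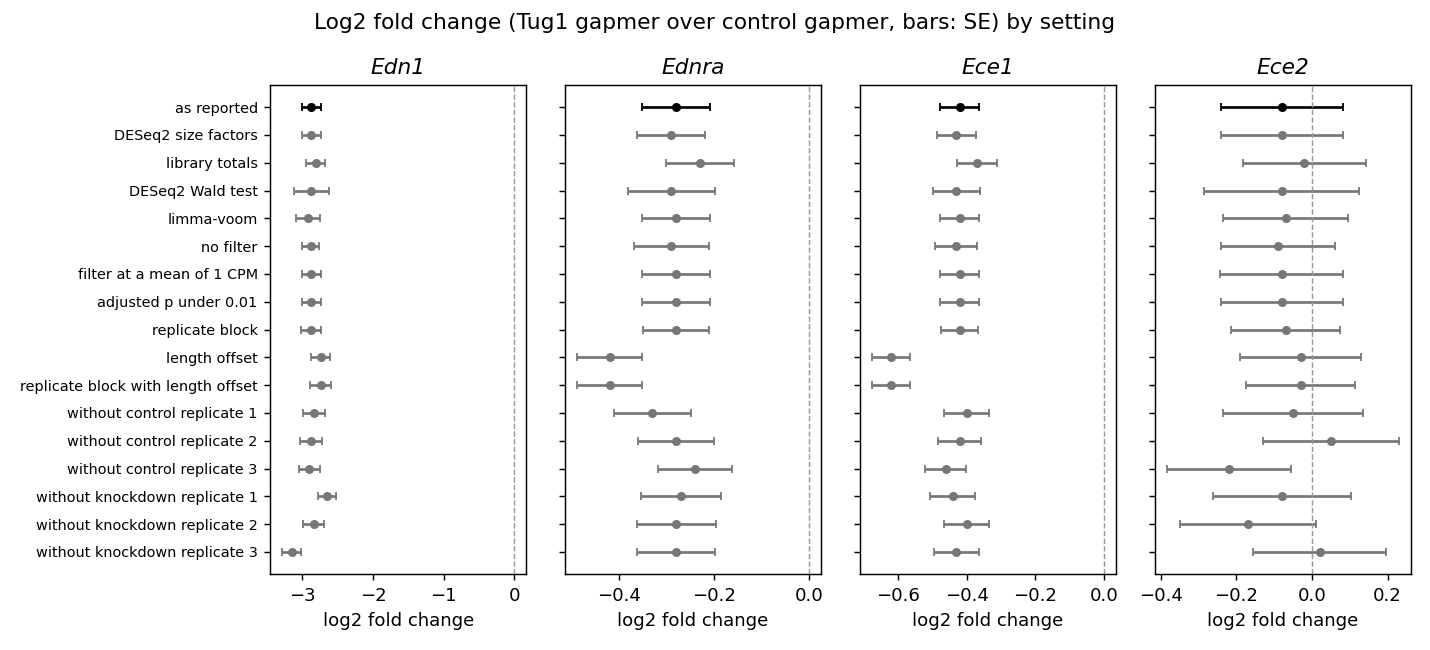
Log2 fold change (Tug1 gapmer over control gapmer) of the 4 detected endothelin genes as reported (black) and in 16 other settings (grey), with SE as bars and a dashed line at 0; the horizontal axes differ between panels. Edn1 stays between -3.15 and -2.65, Ednra and Ece1 move furthest with the length offset, and Ece2 lies around 0.

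The genes around the endothelin system were described in 5 lists, with 127 different genes of which 4 sat in 2 lists. The lists were written from general knowledge, but with earlier results of these data known, so their counts and medians are a description. For each list the count of changed genes stands beside the 61.7% of all tested genes that changed, and its median log2 fold change beside the 0.00 of all tested genes. Adjusted p-values below come from edgeR's quasi-likelihood test, adjusted over all tested genes by Benjamini-Hochberg.

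In the list on peptide processing and clearance, which also holds relatives of the known enzymes, convertase genes moved in both directions. Of 14 genes 8 were tested and 4 changed (50.0%), 2 higher and 2 lower, with a median of -0.07. The 4 that changed are all proprotein convertase genes. Furin, the convertase known to cut the endothelin 1 precursor to big endothelin, held 4105, 4433 and 3843 counts in controls and 2550, 2609 and 2406 after knockdown. It fell from 318 ± 23.6 to 187 ± 5.83 CPM (mean ± SD, n = 3), with a log2 fold change of -0.77 (SE 0.052, adjusted p 1.66e-11). Pcsk4, a relative known mainly from germ cells, fell by 1.50 on the log2 scale, from a low level of 9.25 ± 1.97 CPM (mean ± SD, n = 3). The convertases Pcsk7 and Pcsk5 rose by 0.65 and 0.46, but Pcsk5 stood at 0.05 with the length offset and did not pass there. Mme, which encodes neprilysin, a protease that degrades endothelin, was at 209 ± 13.2 CPM in control libraries and 205 ± 3.55 CPM after knockdown (mean ± SD, n = 3). Its log2 fold change was -0.03 (adjusted p 0.588), and it passed as lower with the length offset (-0.30). Pcsk6 (-0.11) and Phex (-0.15) did not pass, and Pcsk6 passed as lower with the length offset (-0.43). Ecel1, a converting enzyme relative, had 0 counts, and Kel, an enzyme that cuts big endothelin 3, was at or under 3 counts in every library.

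Genes of the list on receptor coupling and signalling moved in both directions. Of 38 genes 30 were tested and 20 changed (66.7%), 12 higher and 8 lower, with a median of -0.04. With the length offset 22 passed. Plcb4 and Arhgef11, which had been higher, no longer did, while Itpr3, Rhoa, Rock1 and Rock2 passed as lower. Gnaq, the G protein subunit that joins the type A receptor to phospholipase C, rose from 74.8 ± 3.13 to 108 ± 1.85 CPM (mean ± SD, n = 3), with a log2 fold change of 0.53 (SE 0.0536, adjusted p 1.09e-08) that shrank to 0.19 with the length offset. Its close relative Gna11 fell by 0.29. Among the phospholipases, Plcb3 fell by 0.65 and Plcb4 rose by 0.55, though Plcb4 stood at 0.16 and did not pass with the length offset. Plcb2 (-0.47) was at a low level and did not pass. The calcium release channel gene Itpr1 rose by 0.64, or by 0.26 with the length offset. Protein kinase C genes Prkce, Prkcd and Prkca rose by 0.87, 0.70 and 0.70, and the related kinase gene Prkd1 by 0.68. With the length offset these values were 0.45 for Prkce, 0.68 for Prkcd, 0.30 for Prkca and 0.31 for Prkd1, all still past the threshold. Of a further pair of G protein subunit genes, Gna12 rose by 0.57 and Gna13 fell by 0.51, and the exchange factor gene Arhgef12 rose by 0.61 (0.38 with the length offset). Gna14 (-0.05) and Gnai3 (0.03) did not pass.

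Some genes that switch off receptor signals moved, in both directions, and others did not pass. Grk5, a kinase that desensitises G protein coupled receptors, held 97.4 ± 5.02 CPM after knockdown against 36.5 ± 2.76 CPM in control libraries (mean ± SD, n = 3). That rise of 1.42 on the log2 scale (SE 0.0645, adjusted p 2.51e-14) was the furthest of the list. Grk6, of the same family, fell by 0.48, and Arrb1, which encodes a beta-arrestin, rose by 0.67. Their relatives Grk2 (-0.09) and Arrb2 (-0.11) did not pass, and Grk3, Rgs4 and Rgs5 had 0 counts in all libraries. Rgs2 and Rgs3, which encode proteins that turn Gq off, fell by 0.41 and 0.31. With the length offset Rgs2 stood at -0.22, where it no longer passed once the replicate block was added, and Rgs3 at -0.56.

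Transcription factors known to regulate Edn1 moved in both directions. Of 28 genes 27 were tested and 21 changed (77.8%), 9 higher and 12 lower, with a median of -0.11. Among all tested genes 61.7% changed, and as the list was written with earlier results known, nothing is read from its share. The AP-1 letters of the printed promoter are of the kind bound by Jun and Fos proteins. Fos held 10.1 ± 1.80 CPM after knockdown against 29.1 ± 1.42 CPM in control libraries (mean ± SD, n = 3), with a log2 fold change of -1.53 (SE 0.106, adjusted p 2.60e-11). Junb, Fosb, Fosl1 and Jun fell by 1.04, 0.91, 0.89 and 0.31, while Fosl2 rose by 0.20. With the length offset Jun stood at -0.13 and still passed. Jund was at 160 ± 24.1 and 163 ± 9.58 CPM (mean ± SD, n = 3) and did not pass (0.03), though it passed as higher with the length offset (0.25).

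Of the GATA factors, Gata2 and Gata6 fell by 0.77 and 0.75. Gata4 was at 12.7 ± 1.75 and 10.6 ± 0.612 CPM (mean ± SD, n = 3) and did not pass (-0.26, adjusted p 0.0627). It passed as lower with the length offset (-0.40) and without control replicate 3 (-0.37). For the hypoxia factors, Hif1a was at -0.08 and did not pass except with the length offset (-0.16), its partner gene Arnt rose by 0.30 (0.19 with the length offset), and Epas1 was at or under 3 counts in every library.

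Of the other factors of the list known to raise or lower Edn1, some moved and some did not pass. Smad2 and Smad3, which carry TGF-beta signals, rose by 1.22 and 0.48 (Smad3 0.28 with the length offset), and Smad4 did not pass (-0.11) except with the length offset. The NF-kappaB genes Nfkb1 and Rela rose by 0.81 and 0.54, and Foxo1 by 1.04. Klf4 fell by 0.96, while Klf2 (-0.07) and Sp1 (0.01) did not pass. Whether any of these factors acted on the Edn1 promoter in these cells was not tested.

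All tested genes of the list of known endothelin 1 responses in cardiac cells changed. Of 15 genes 12 were tested and 12 changed (100%), 9 lower and 3 higher, with a median of -0.69. As this list too was written with earlier results known, nothing is read from that share. Egr1, an immediate early transcription factor gene, was at 44.6 ± 2.67 CPM in control libraries and fell to 17.2 ± 1.44 CPM after knockdown (mean ± SD, n = 3). Its log2 fold change was -1.37 (SE 0.0814, adjusted p 1.99e-12), and its groups did not overlap. Fos, of the same kind, fell by 1.53 and Myc by 0.87. Ccn1 and Ccn2, matrix-associated growth regulators, fell by 0.82 and 0.55, and the cytokine gene Il6 by 0.87. Rcan1 fell by 0.37 and Jun by 0.31.

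The 3 genes of that list that rose are muscle genes. Ankrd1, a stress-responsive gene of striated muscle, rose from 709 ± 43.0 to 1150 ± 96.3 CPM (mean ± SD, n = 3), with a log2 fold change of 0.69 (adjusted p 1.81e-10). Acta1, the skeletal alpha actin gene, rose by 0.32, or by 0.50 with the length offset. Myl2 rose by 1.23 from a low level of 0.539 ± 0.133 CPM (mean ± SD, n = 3) and did not pass without control replicate 3 or without knockdown replicate 1. Of the classic hypertrophy genes, Nppb had 0 counts in all libraries, and Nppa and Myh7 had group means of at most 0.122 and 0.0745 CPM, too low to be tested. Many genes of the list answer to other signals too, and the part of endothelin in their levels was not tested.

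Genes of other vasoactive systems were compared to set Edn1 beside peptides with a like role. Of 36 genes 15 were tested and 12 changed (80.0%), 5 higher and 7 lower, with a median of -0.04. Apln, which encodes the vasodilator peptide apelin, held 47, 54 and 45 counts in controls and 5, 3 and 2 after knockdown, or 3.75 ± 0.377 and 0.245 ± 0.108 CPM (mean ± SD, n = 3). Its log2 fold change was -3.88 (SE 0.350, adjusted p 1.94e-09), at counts that are few after knockdown. Adm, which encodes the vasodilator adrenomedullin, rose from 32.0 ± 1.79 to 45.0 ± 2.49 CPM (mean ± SD, n = 3), with a log2 fold change of 0.49 (adjusted p 2.59e-06). Both parts of its receptor fell, Calcrl by 0.50 and Ramp2 by 1.37. Ace, which encodes the angiotensin converting enzyme, fell by 1.65 at a low control level of 1.49 ± 0.553 CPM (mean ± SD, n = 3), and the vasopressin receptor gene Avpr1a fell by 0.73. The prostaglandin synthase genes moved apart, Ptgs2 falling by 0.89 and Ptgs1 rising by 0.40. Npr2 (-0.04), Npr3 (0.11) and Ptgis (-0.03) did not pass, though Npr3 passed as higher when scaled by totals alone (0.16) and without knockdown replicate 2 (0.15). Agtr1a, Agtr2, Nos1, Nppb and Uts2r had 0 counts in all libraries.

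**Figure D3:**
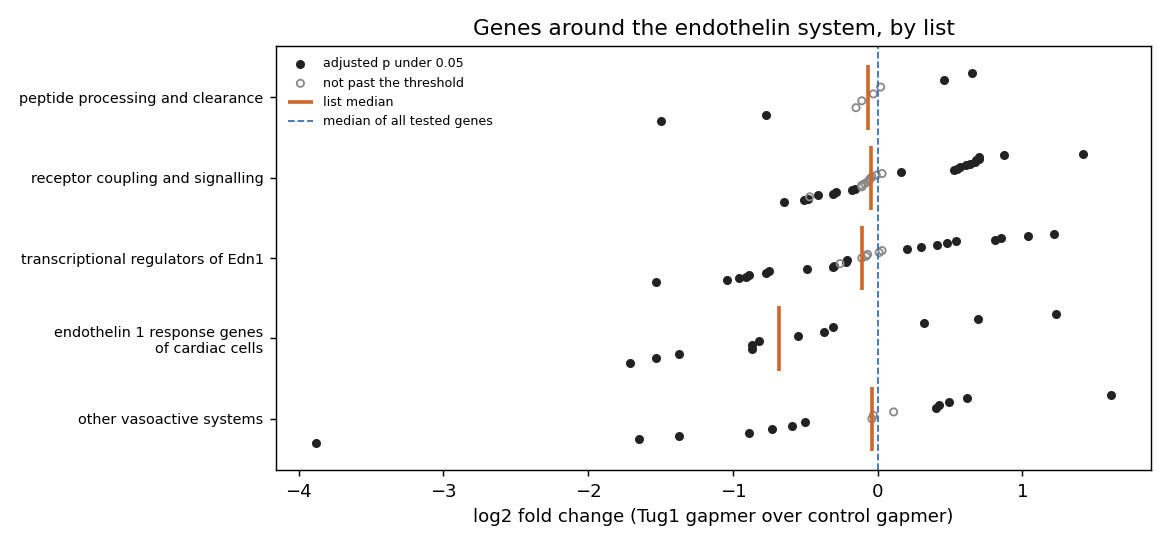
Log2 fold change (Tug1 gapmer over control gapmer) of each tested gene in the 5 lists; filled points passed an adjusted p of 0.05, open points did not, orange bars are list medians and the dashed line is the median of all tested genes. Points of the endothelin 1 response list lie mostly to the left (median -0.69), and the other list medians lie between -0.11 and -0.04.

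Profiles over the 6 libraries were compared with that of Edn1 to find the genes that resembled it most. Likeness was the root-mean-square distance between values of log2(CPM + 0.5), each centred on the mean of its gene, over 9078 tested genes with a mean of at least 10 CPM. The endothelin genes and genes with placeholder symbols, such as those starting with LOC or RGD, were left out. A nearer gene with such a symbol is therefore possible. The nearest were Slc4a11 (distance 0.297), Thop1 (0.324), Dancr (0.348), Cited1 (0.348) and Dusp6 (0.379), in log2 units. Slc4a11 encodes a membrane transporter, Thop1 a peptidase, Cited1 a transcriptional coregulator and Dusp6 a phosphatase that acts on ERK, while Dancr is a long non-coding RNA. Their log2 fold changes ran from -2.84 (SE 0.0709) for Slc4a11 to -2.28 (SE 0.0561) for Dusp6, near the -2.87 of Edn1, as the choice by distance fixes. With 2 groups of libraries, such likeness is mainly the size of the group difference. Dusp6 held 2331, 2199 and 2234 counts in controls and 512, 469 and 474 after knockdown, and these knockdown libraries lay closer together than those of Edn1. RefSeq promoters were at hand for 4 of the 5. Of the same 4 motifs, Thop1 held the hypoxia core, Cited1 the TATA letters and Dusp6 the GATA letters, and none was found before Dancr.

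**Figure D4:**
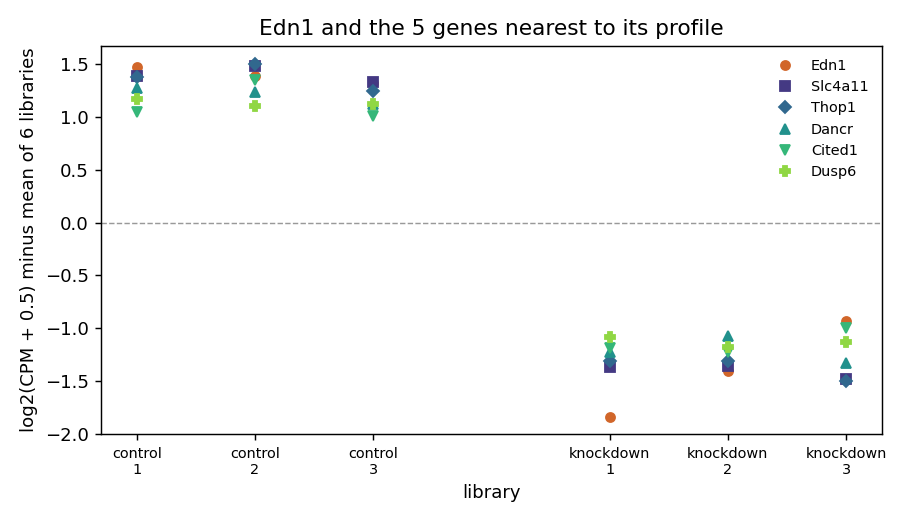
Centred log2(CPM + 0.5) of Edn1 and the 5 genes nearest to it, among those compared, in each of the 6 libraries; the vertical axis is the difference from the gene's mean over all libraries. All 6 genes are above 0 in the controls and below 0 after knockdown, and Edn1 spreads most among the knockdown libraries.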

How the data were processed

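For 6 libraries the authors deposited raw counts by gene, unscaled and not pooled, as the whole-number values show. Per the submitters' processing notes, FastQC 0.11.7, fastp 0.14.1 and STAR 2.5 were used. The counting tool, genome build, annotation, strand setting and handling of shared reads are not given in the sources used here. From these counts, R 4.3.3 and edgeR 4.0.16 were used with the expression filter (minimum count 10, minimum total 15), TMM scaling and the two-sided quasi-likelihood test without a block. Benjamini-Hochberg adjustment ran over 14216 genes with 0.05 as the threshold for a change. Other settings used limma 3.58.1 and DESeq2 1.42.0. The fits with edgeR, limma, DESeq2 and the length offset were tested on simulated counts.

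The endothelin genes, the lists and the rules were chosen with earlier results of these data known. Of each list, the 6 changed genes with the smallest p and up to 3 that did not pass were named, besides genes nearest to Edn1; the further genes named were chosen after their values were seen. A gene that met the rule is counted but not reported here by its name. Spans and neighbours came from the GRCr8 gene table, which matched 28446 symbols and covered 90.3% of tested genes.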

Additional observations from a re-analysis of the deposited data

How the results depend on the processing

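All alternatives were planned. Tug1 was lower throughout (log2 fold change -2.22 to -2.07; -2.22 to -2.15 with a library left out), as was Edn1 (-3.15 to -2.65, the same range with a library left out), and the same number of endothelin genes, 3, passed in each alternative, in the libraries by which they were chosen. Ednra ranged from -0.42 to -0.23 and Ece1 from -0.62 to -0.37. With the length offset, 6 rather than 4 processing and clearance genes passed. Other list counts and the count of changed genes (7353 to 8987) stayed within 1.5 times. Libraries with the same replicate number showed no sign of pairing (correlations -0.0053, 0.0298 and 0.027 of their deviations from the group mean). With 3 libraries per group this cannot show that they were unpaired. When the fit took the number as a replicate block, 8848 genes passed, Edn1 stood at -2.87 and Ece2 at -0.07, and the calls of the endothelin genes were the same. A scale per length was not run, as no transcript lengths were used.

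Among 80 other genes, which include all that met the naming rule, 60 kept direction and call in each alternative. Over 1277 combinations 14 were weaker, 15 stronger and 24 reversed. Of the 80 genes, the 10 that reversed had not been called changed. Some genes named here, such as Tnnt2, Grk2, Arrb2, Klf2 and Sp1, are outside the 80. Arhgef11, also outside, had passed as higher (0.16) and stood at -0.06 with the length offset, without passing. With library totals Gna14 (0.00667), Mme (0.0201), Npr2 (0.0134), Psmd2 (0.044) and Ptgis (0.0245) changed sign. With the length offset, without and with the replicate block, Gnai3 (-0.022 and -0.0219), Hivep1 (-0.191 and -0.192), Npr3 (-0.0242 and -0.0254) and Psmd2 (0.0703 and 0.0706) did. With a library left out, Gna14 ranged from -0.456 to 0.198, Jund from -0.0676 to 0.146, Mme from -0.0853 to 0.0066, Npr2 from -0.0809 to 0.0081, Phex from -0.362 to 0.0192, Psmd2 from -0.0336 to 0.00823 and Ptgis from -0.0549 to 0.0061. Beyond what the offset's construction shows, the cause was not tested. Depth limits Ece2 and other weakly expressed genes, since 1 CPM is only 12.9 to 13.8 counts.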

Other observations

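The genes on either side of the endothelin genes were looked up after the data had been seen, in the order of the GRCr8 gene table. Distances are not given, since the build behind the counts was not stated. A nearest tested gene is not always an adjacent one, and some lie far off, such as Tbc1d7 from Edn1 and Rbmxl1 from Ednra. The nearest tested genes beside Edn1 were Hivep1, at 25.7 ± 1.00 CPM in control libraries and 26.5 ± 1.53 CPM after knockdown (mean ± SD, n = 3), and Tbc1d7, at 25.9 ± 1.51 and 23.2 ± 0.366 CPM (mean ± SD, n = 3). Neither passed in edgeR's quasi-likelihood test, with log2 fold changes of 0.05 (SE 0.079, adjusted p 0.623) and -0.16 (SE 0.0799, adjusted p 0.0930), although the libraries of Tbc1d7 did not overlap between groups. With the length offset Hivep1 changed sign and passed as lower (-0.19, adjusted p 0.0367). Beside Ednra, Tmem184c fell by 0.42 and Rbmxl1 by 0.72 on the log2 scale. Beside Ece1, Eif4g3, which encodes a translation initiation factor, rose from 58.3 ± 2.86 to 116 ± 7.26 CPM (mean ± SD, n = 3), with a log2 fold change of 0.99 (adjusted p 2.76e-12), or 0.66 with the length offset, opposite to the sign of Ece1. On the other side of Ece1, Alpl rose by 1.20 at a low level of 0.745 ± 0.347 CPM in control libraries (mean ± SD, n = 3). It did not pass without control replicate 2 (0.89) or without knockdown replicate 2 (0.91). Beside Ece2, Camk2n2 fell by 0.45 (adjusted p 0.0137), but failed to pass with the length offset (-0.29), without control replicate 2 (-0.34), without knockdown replicate 3 (-0.37) or at an adjusted p of 0.01. Psmd2, on the other side of Ece2, was at 585 ± 17.4 and 581 ± 1.80 CPM (mean ± SD, n = 3) and did not pass (-0.01).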
